A study of Oryza sativa with 6 samples.

Results

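Specific IP-G4s at the ends of rice chromosomes are the K+-specific and Na+-specific IP-G4s whose midpoint lies in the first 1 Mb of Chr1 to Chr10 or in the last 1 Mb of Chr1 to Chr12, on the chromosome lengths of MSU v7. The starts of Chr11 and Chr12 were left out, so that 22 windows were obtained. They held 1427 of 25509 specific IP-G4s (908 K+-specific and 519 Na+-specific), which is 5.59% of the lists on 5.89% of the chromosome length. An IP-G4 is a stretch of DNA pulled down with BG4, an antibody against G-quadruplexes, and found as a peak over input DNA. Position alone chose the members, and no measured value was used.

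The DNA came from seedlings of wild-type japonica rice, fragmented, denatured and folded again with PEG200 and either KCl (K+) or NaCl (Na+), whereas input DNA taken without the antibody was sequenced as the control. Each of these 3 groups had 2 replicates. The cations differed only at the folding step, since the study's methods give KCl in the antibody and washing buffers of both conditions. The seedlings were cross-linked with formaldehyde before the DNA was taken, and folding took place outside the cell. The authors obtained the specific IP-G4s by intersecting the peaks of both replicates of a condition. Shared segments were kept as specific if they did not overlap a shared segment of the other condition. Hence these lists carry positions only, with no value of a single sample, and a length in them is the length of a shared segment.

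G-quadruplexes (G4s) are 4-stranded structures that G-rich DNA forms when guanines stack as tetrads around a monovalent cation, and K+ usually stabilizes them more than Na+. Plant chromosomes end in telomeres, long arrays of the repeat TTTAGGG, whose G-rich strand can fold into G4s in vitro. The DNA next to the telomeres lies in the distal chromosome arms, which in rice are rich in genes, whereas transposable elements and satellite repeats accumulate around the centromeres. The arrays themselves are largely missing from assembled chromosomes, so that the windows describe the DNA next to the telomeres. The genome sequence of MSU v7 was not used here, and no sequence of a member can be shown.

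As examples, the oligos that the study synthesized for 1 K+-specific and 1 Na+-specific locus are given here. They are written in 5′ to 3′ direction with runs of 3 or more G in capitals. These are single loci, and whether they are typical of the 2 lists was not tested. By circular dichroism spectroscopy, without PEG200, the study found a similar amplitude with K+ and with Na+ for the Na+-specific oligo, unlike for the K+-specific one. In its dot blot, where BG4 binds oligos on a membrane, the Na+-specific locus gave a stronger signal with NaCl and PEG200 than with KCl and PEG200. The study names unequal binding of BG4 as a possible reason for this mismatch. The positions of both oligos in the genome are not given in the sources used here, so it is unknown whether they lie at a chromosome end.
K+-specific oligo: GGGcggctGGGaggccGGGGtGGGGGG
Na+-specific oligo: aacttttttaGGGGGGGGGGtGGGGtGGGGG
The K+-specific oligo is 27 bases long and has 4 runs of 3 or more G. The Na+-specific oligo is 31 bases long and has 3 such runs, the first of them preceded by a stretch of T. A long run, such as this first one, is counted once, although it has room for more than 1 stretch of 3 G. Guanine makes up 74.1% of the K+-specific oligo and 61.3% of the Na+-specific oligo.

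To ask whether specific IP-G4s were more or less dense at chromosome ends, the end windows and the rest of the same chromosome were compared for each of the 12 chromosomes. The windows had 65.4 ± 8.15 specific IP-G4s per Mb, and the rest had 69.0 ± 2.93 per Mb (SD, n = 12 chromosomes each). The density was lower at the ends on 10 of 12 chromosomes and higher on Chr5 and Chr12, by 3.54 per Mb less on average, and the difference had a 95% interval of -7.50 to 0.48 per Mb (paired exact permutation test by sign flips over chromosomes, two-sided, p = 0.0791, adjusted p = 0.221 over 6 comparisons). The SD between chromosomes was larger than this difference. Thus a difference in density between the outer 1 Mb and the rest was not shown.

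The 2 types of IP-G4s gave different values. The K+-specific IP-G4s had a density of 41.4 ± 6.53 per Mb at the ends and 45.3 ± 2.08 per Mb in the rest (SD, n = 12 chromosomes each), again lower at the ends on 10 of 12 chromosomes. The difference was -3.93 per Mb (95% interval -7.13 to -0.61; exact permutation test, p = 0.0259) and did not pass after adjustment (adjusted p = 0.155). The call depends on Chr12, since without this chromosome the difference was -4.79 per Mb with an adjusted p of 0.0410 in the exact permutation test. Na+-specific IP-G4s had 24 ± 4.15 per Mb at the ends and 23.7 ± 1.32 per Mb in the rest, with higher values at the ends on 8 of 12 chromosomes. Their difference of 0.39 per Mb (95% interval -2.00 to 2.79; exact permutation test, adjusted p = 0.727) was smaller than the SD between chromosomes.

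**Figure D1:**
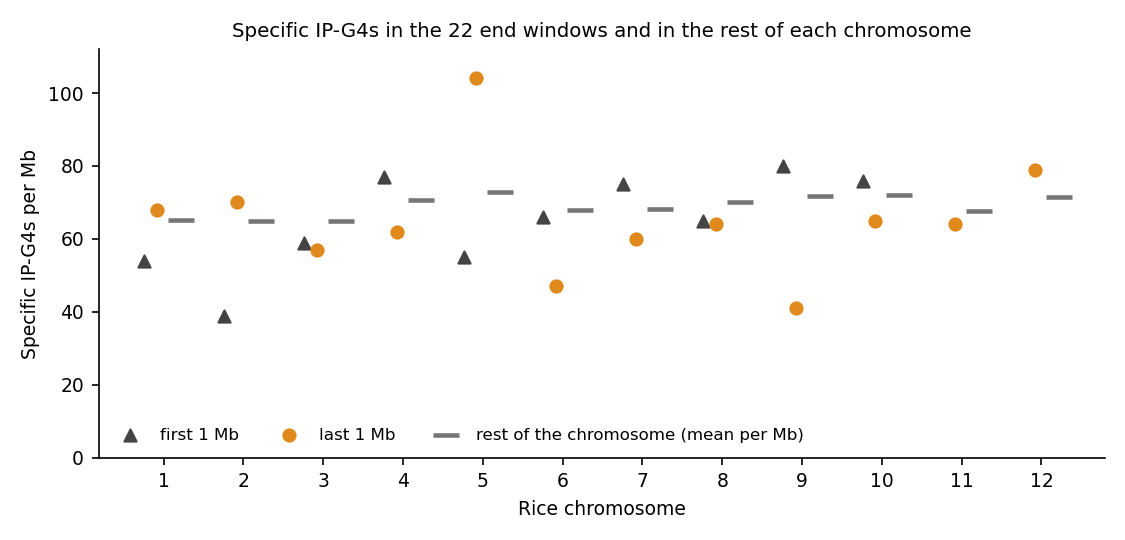
Specific IP-G4s per Mb (y axis) on each rice chromosome (x axis), with triangles for the first 1 Mb, circles for the last 1 Mb and bars for the mean of the rest of the chromosome. The windows scatter between 39 and 104 per Mb, more widely than the means of the rest, each of which covers many more Mb. Interior bins of 1 Mb, not drawn, had a similar scatter (SD 15.5, against 14.3 for the windows).

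The 22 windows differed widely from each other. They held between 39 and 104 specific IP-G4s, with a median of 64.5, whereas 344 interior bins of 1 Mb held between 34 and 124 with a median of 67. The windows thus fell within the range of the interior bins, and 3 lay above the upper and 6 below the lower quartile of these bins. The variance was 3.14 times the mean among the windows and 3.47 times the mean among the interior bins. For K+-specific IP-G4s it was 2.07 times the mean among the windows and 3.10 times among the bins, and for Na+-specific ones 2.38 and 1.67 times. These ratios were not tested. The number of K+-specific IP-G4s was between 23 and 64 per window (median 41.5), and that of Na+-specific IP-G4s between 6 and 40 (median 24).

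The densest window was the end of Chr5 with 104 specific IP-G4s (64 K+-specific and 40 Na+-specific), and 9 of the 344 interior bins held more. It was followed by the start of Chr9 with 80 (51 and 29) and the end of Chr12 with 79 (52 and 27). The sparsest window was the start of Chr2 with 39 (23 K+-specific and 16 Na+-specific), and 3 interior bins held fewer. The end of Chr9 with 41 (35 and 6) and the end of Chr6 with 47 (33 and 14) came next. Both ends of a chromosome could therefore differ, as on Chr9, where the start had 80 and the end 41, or on Chr5, where the start had 55 and the end 104. Across Chr1 to Chr10, the start windows had 64.6 ± 13 specific IP-G4s per Mb and the end windows 63.8 ± 16.8 (SD, n = 10 chromosomes each). The starts were higher on 7 of 10 chromosomes, but the mean difference was only 0.80 per Mb (95% interval -18.2 to 18.7; exact permutation test, p = 0.924). The direction of this difference is not stable, because it turned negative without Chr4, Chr6, Chr7, Chr9 or Chr10, with the lowest value of -3.44 without Chr9.

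Within the windows, specific IP-G4s were most frequent near the tip. When the 22 ends were pooled in steps of 100 kb, the density was 81.4 and 83.6 per Mb in the 2 outermost steps (179 and 184 IP-G4s) and 53.2 per Mb in each of the 2 innermost steps (117 IP-G4s each). The outer 0.5 Mb held 803 and the inner 0.5 Mb 624 specific IP-G4s, or 73.0 and 56.7 per Mb. The outer part held more in 16 of 22 windows, fewer in 5 and the same number in 1. Both types were denser in the outer than in the inner 0.5 Mb. K+-specific IP-G4s had 45.7 per Mb in the outer and 36.8 per Mb in the inner 0.5 Mb, and Na+-specific ones had 27.3 and 19.9 per Mb. The comparison of both parts was made after the profile had been seen, and no test is given for it.

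**Figure D2:**
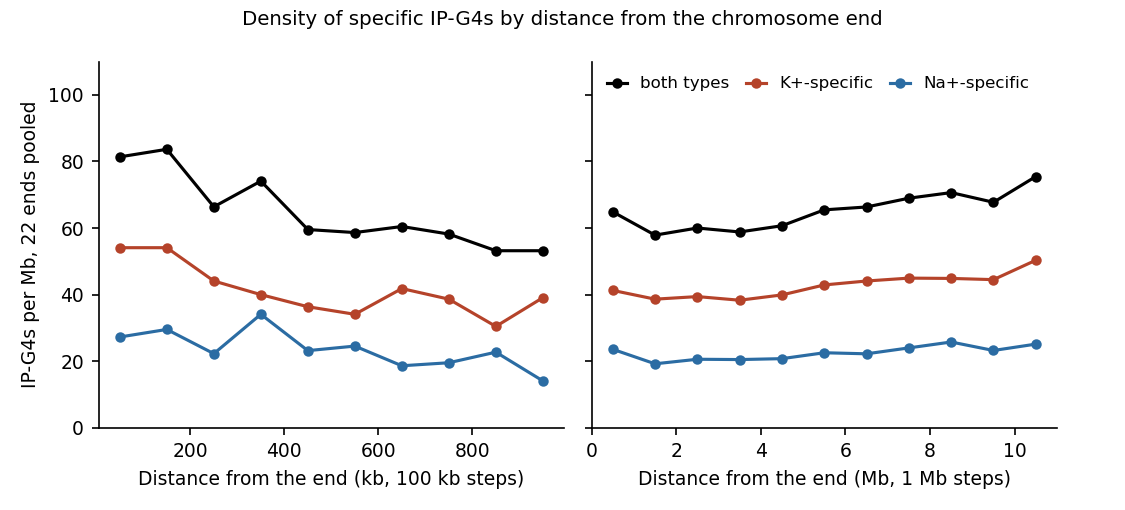
Density of specific IP-G4s (y axis, IP-G4s per Mb, 22 ends pooled) by distance from the chromosome end (x axis), in steps of 100 kb within the windows (left, kb) and of 1 Mb farther inwards (right, Mb), for both types together, K+-specific and Na+-specific IP-G4s. Both types together fall from 83.6 per Mb in the step at 100 to 200 kb to 53.2 per Mb before 1 Mb, stay near 60 per Mb until 5 Mb and rise again farther inwards.

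The end of Chr5 contributed most to the outermost steps. Its last 100 kb held 21 specific IP-G4s (18 K+-specific and 3 Na+-specific) and the 100 kb before it 20 (15 and 5), and these were the densest of the 220 pieces of 100 kb in the windows. The next densest pieces held 16 each, at 100 to 200 kb from the start of Chr9, 600 to 700 kb from the start of Chr10 and 700 to 800 kb from the end of Chr12. The median piece held 6, and 2 pieces held none. Counted in the outer 200 kb, the end of Chr5 had 41 specific IP-G4s, whereas the median of the windows was 15.5 and the start of Chr2 had the fewest with 6.

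IP-G4s were found up to the first bases of the assembled chromosomes. The K+-specific IP-G4 nearest to a chromosome start lay on Chr2 from 4 to 426, and the nearest Na+-specific one lay on Chr10 from 2805 to 3062. Over the 22 windows, the distance between the chromosome end and the nearest specific IP-G4 had a median of 8437 bp. It was largest at the start of Chr9 with 61935 bp. At the chromosome ends on the right side, this distance rests on lengths rounded to 1 kb.

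The rest of a chromosome includes the centromere, and a reference nearer to the ends was also used. Centromere positions were not used here, so this nearer region may hold a centromere on some chromosomes. Between 1 and 5 Mb from the same ends the density was 58.9 ± 7.21 per Mb, which is lower than the 65.4 ± 8.15 per Mb in the outer 1 Mb (SD, n = 12 chromosomes each). The ends were denser than this neighbouring region on 11 of 12 chromosomes, with Chr9 as the exception, where the values were 60.5 and 74.1 per Mb. The mean difference was 6.48 per Mb (95% interval -0.16 to 13.2; exact permutation test, p = 0.0566, adjusted p = 0.170). It was 2.82 per Mb for K+-specific IP-G4s, with 6 of 12 chromosomes higher at the ends (exact permutation test, adjusted p = 0.343). For Na+-specific ones it was 3.66 per Mb, with 10 of 12 higher (95% interval 0.70 to 6.40; exact permutation test, p = 0.0229, adjusted p = 0.138). Thus the sign of the difference in total and in K+-specific density turned with the reference region, and none of these differences passed the test after adjustment.

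With windows of 2 Mb, the ends were sparser than the rest. They had 61.8 ± 6.52 specific IP-G4s per Mb against 69.7 ± 3.08 per Mb in the rest, and the density was lower on 11 of 12 chromosomes, all except Chr4 (difference -7.96 per Mb, 95% interval -11.5 to -4.39; exact permutation test, adjusted p = 0.00586). This also held for K+-specific IP-G4s, with 39.8 ± 4.89 against 45.8 ± 2.18 per Mb (difference -5.94; exact permutation test, adjusted p = 0.00586), whereas the difference of -2.02 per Mb for Na+-specific ones did not pass (exact permutation test, adjusted p = 0.137). When each chromosome was left out in turn, the adjusted p for 2 Mb stayed at or below 0.0117 for both. With windows of 0.5 Mb, the ends had 74.1 ± 12.4 per Mb against 68.6 ± 3.01 per Mb in the rest, and the difference of 5.49 per Mb did not pass (exact permutation test, adjusted p = 0.198). For Na+-specific IP-G4s these windows gave a difference of 4.45 per Mb, with higher values at the ends on 8 of 12 chromosomes. Its 95% interval was 0.40 to 8.78, and it did not pass after adjustment (exact permutation test, p = 0.0337, adjusted p = 0.190). Thus a lower density passed the test with the outer 2 Mb and not with the outer 1 or 0.5 Mb.

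To examine whether the balance of both cations changed at chromosome ends, the K+ share was calculated, that is, the percentage of specific IP-G4s that are K+-specific. In pooled counts it was 63.6% at the ends (908 of 1427, 95% Wilson interval 61.1 to 66.1) and 65.7% in the rest (15817 of 24082, 65.1 to 66.3). Per chromosome it was 63.2 ± 5.17% at the ends and 65.7 ± 1.24% in the rest (SD, n = 12 chromosomes each), lower at the ends on 7 of 12 chromosomes. The difference of -2.52 percentage points had a 95% interval of -5.76 to 0.38 (exact permutation test, p = 0.110, adjusted p = 0.221). Fisher's exact test on the pooled counts gave p = 0.115. Since this share compares both lists directly, it was not shown that the lists changed unequally at the ends. Wilson intervals cover counting error only, and the lists differ in size as a whole because the reproducible peaks of the conditions differ in number.

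**Figure D3:**
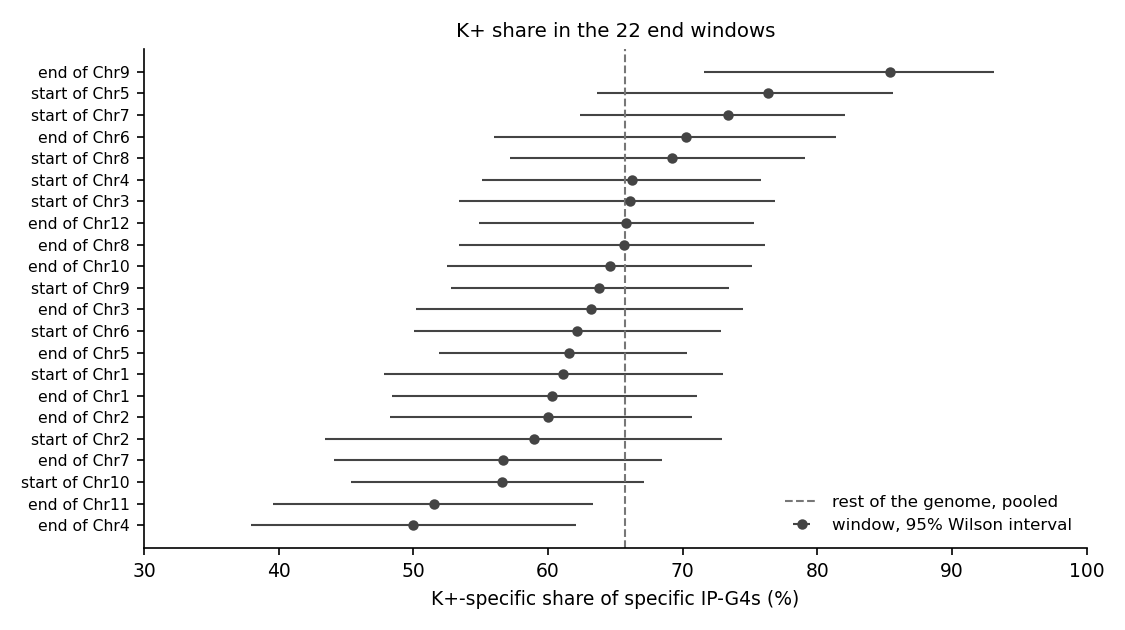
K+-specific share of the specific IP-G4s (x axis, percent) in each of the 22 end windows (y axis, sorted), with 95% Wilson intervals as bars and the pooled share of the rest of the genome, 65.7%, as the dashed line. The intervals of 19 windows include the line.

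Single windows had K+ shares between 50% and 85.4%, with a median of 63.5%. The intervals of 19 of 22 windows included the 65.7% of the rest. The highest share was found at the end of Chr9, where 35 of 41 specific IP-G4s were K+-specific (85.4%, 95% Wilson interval 71.6 to 93.1), and this window was also the one with the fewest Na+-specific IP-G4s, 6 in 1 Mb, where the interior bins had at least 8. The start of Chr5 with 76.4% (42 of 55) and the start of Chr7 with 73.3% (55 of 75) followed. The lowest share was that of the end of Chr4, with 31 IP-G4s of each type (50%, 95% Wilson interval 37.9 to 62.1). The end of Chr11 with 51.6% (33 of 64) and the start of Chr10 with 56.6% (43 of 76) came next. K+-specific IP-G4s were thus more frequent in 21 of 22 windows and equal in number in 1. Among the interior bins of 1 Mb, the share was between 42.9% and 81.0%, so that only the end of Chr9 lay outside their range. With 41 IP-G4s its interval reached well into that range. The starts had a share of 65.4 ± 6.24% and the ends of the same 10 chromosomes 63.7 ± 9.33%, a difference of 1.63 points (95% interval -7.48 to 10.2; exact permutation test, p = 0.674).

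Within the windows, the K+ share did not move in 1 direction with distance from the tip. In steps of 100 kb it was lowest at 300 to 400 kb with 54.0% (88 of 163) and highest at 0.9 to 1 Mb with 73.5% (86 of 117). It was 62.6% in the outer 0.5 Mb (95% Wilson interval 59.2 to 65.9) and 64.9% in the inner 0.5 Mb (61.1 to 68.5), and these intervals overlap. From 1 to 5 Mb inwards it was 65.8%.

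The lengths of IP-G4s at chromosome ends were close to those elsewhere. The K+-specific IP-G4s of the windows were 254 bp long in the median (quartiles 207 and 334 bp), and those of the rest 259 bp (quartiles 210 and 347 bp). For Na+-specific IP-G4s, this length was 217 bp in the windows (quartiles 193.5 and 275 bp) and 227 bp in the rest (200 and 281 bp). Averaged over chromosomes, the medians of K+-specific IP-G4s were 257 ± 16.2 bp at the ends and 259 ± 3.95 bp in the rest, which is a difference of -2.13 bp (95% interval -11.4 to 7.60; exact permutation test, adjusted p = 0.727). Those of Na+-specific IP-G4s were 221 ± 15.2 bp at the ends and 228 ± 3.14 bp in the rest (SD, n = 12 chromosomes each), a difference of -6.25 bp (95% interval -15.75 to 2.90; exact permutation test, adjusted p = 0.256). They were shorter at the ends on 8 of 12 chromosomes and longer on 3. With means in place of medians, the differences were -8.54 bp for K+-specific and -10.2 bp for Na+-specific IP-G4s (exact permutation test, adjusted p = 0.132 and 0.0835). In neither list did a difference in length pass the test.

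**Figure D4:**
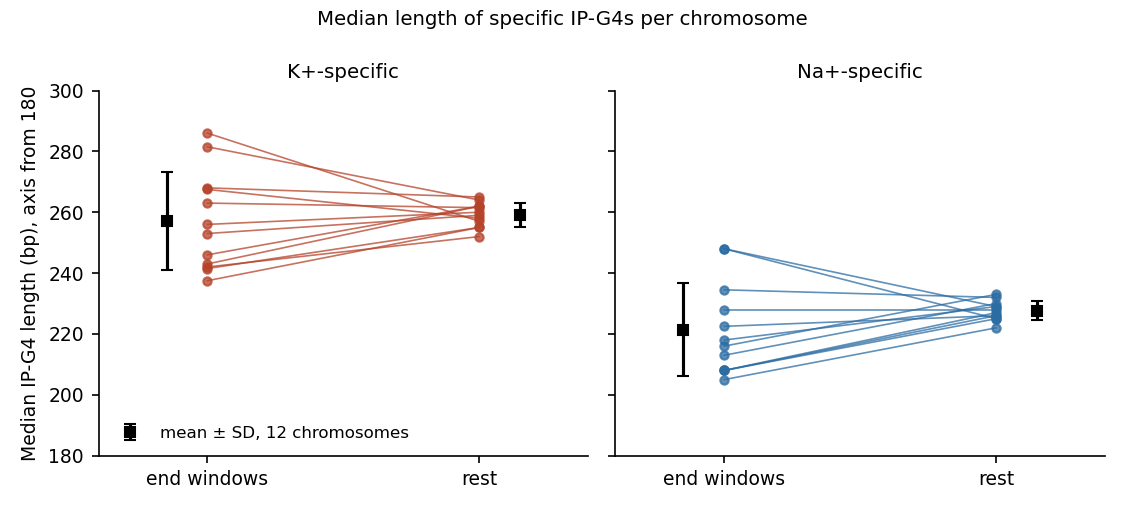
Median length of K+-specific (left) and Na+-specific (right) IP-G4s (y axis in bp, not starting at 0) in the end windows and in the rest of the same chromosome, with 1 line per chromosome and squares with bars for the mean ± SD over 12 chromosomes. The values at the ends, from fewer IP-G4s, spread around those of the rest in both panels.

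Segments shorter than 200 bp, the shortest peak length in the lists of single libraries, arise where peaks of both replicates overlap in part. Of the K+-specific IP-G4s, 17.8% were that short at the ends and 15.8% in the rest. Of the Na+-specific ones, it was 28.7% at the ends and 24.8% in the rest. Long IP-G4s were also present. At the ends, 36 K+-specific IP-G4s (3.96%) had 600 bp or more, against 4.66% in the rest, and 20 Na+-specific ones (3.85%) had 400 bp or more, against 6.11% in the rest. The 3 longest K+-specific IP-G4s at the ends were on Chr4 from 35210355 to 35211381 (1027 bp), on Chr10 from 22733968 to 22734942 (975 bp) and on Chr7 from 825926 to 826896 (971 bp). Among Na+-specific IP-G4s, the 3 longest segments lay on Chr3 from 36201990 to 36202583 (594 bp), on Chr4 from 581679 to 582212 (534 bp) and on Chr8 from 27780028 to 27780555 (528 bp). Positions are those of MSU v7, counted from 1, and the genes at these positions were not analysed here.

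Neighbouring IP-G4s were somewhat farther apart at the ends. The median gap to the nearest specific IP-G4 of either type was 4489 bp in the windows and 3581 bp in the rest. A neighbour within 1 kb was found for 22.6% of the members (323 of 1427, 95% Wilson interval 20.5 to 24.9) and 24.2% of the other IP-G4s (23.7 to 24.8). A neighbour of the other type within 1 kb was found for 9.95% (8.50 to 11.6) and 9.17% (8.81 to 9.54). No neighbour within 10 kb was found for 26.4% of the members (24.2 to 28.8) and 22.5% of the others (22 to 23). These shares are not adjusted for density and were not tested over chromosomes.

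The start of Chr1 is the only end for which peaks of single libraries were used, because the part of the library lists that was used here runs over the first 5.86 Mb of that chromosome in all 4 of them. In the first 1 Mb, K++PEG200 gave 122 peaks in replicate 1 and 157 in replicate 2, whereas Na++PEG200 gave 131 in replicate 1 and 119 in replicate 2. The libraries of the conditions overlapped in this number, and the highest and the lowest value came from replicate 2 of each. The mean was 139.5 ± 24.7 peaks under K++PEG200 and 125 ± 8.49 under Na++PEG200 (SD, n = 2 each), a difference of 14.5 that is smaller than the larger SD (exact permutation test, two-sided, p = 0.667, where 0.33 is the smallest possible value). The sign rests on the second K++PEG200 library, since the difference was -3 peaks without it. This library and the first one of Na++PEG200 were sequenced more deeply than their partners, and the part of depth in these counts was not tested.

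Relative to the rest of the stretch, the first 1 Mb of Chr1 was neither richer nor poorer in peaks in all libraries. With K++PEG200, there were 122 against 129 peaks per Mb in replicate 1 and 157 against 147 in replicate 2. With Na++PEG200, there were 131 against 138 in replicate 1 and 119 against 105 in replicate 2. In both conditions the first 1 Mb was thus lower in replicate 1 and higher in replicate 2. Peaks covered 5.05% and 6.44% of this 1 Mb in the K++PEG200 libraries, against 4.74% and 4.32% in those of Na++PEG200. In the rest of the stretch they covered 5.40% and 6.72%, against 5.29% and 4.07%. In the median, the peaks of the first 1 Mb were 355 and 344 bp long in the K++PEG200 libraries, against 317 and 300 bp in the Na++PEG200 libraries. All K++PEG200 values lay above all Na++PEG200 values, and the difference of 41 bp was larger than the SDs of 7.78 and 12 bp (exact permutation test, p = 0.33, the smallest possible). The rest of the stretch had the same order, with 344.5 and 366 bp against 314 and 318 bp, so that it was not particular to the first 1 Mb. The fold enrichment over input, as deposited for each peak, had medians of 4.45 and 3.72 in the K++PEG200 libraries (4.26 and 4.03 in the rest of the stretch). In the Na++PEG200 libraries the medians were 3.41 and 3.56 (3.55 and 3.84 in the rest).

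When these lists were intersected, the first 1 Mb of Chr1 held 71 common IP-G4s beside the 33 K+-specific and 21 Na+-specific members, and the rest of the stretch held 321, 172 and 100. The 33 and 21 specific ones were identical in position to those of the deposited lists. The specific types made up 43.2% in the first 1 Mb (54 of 125, 95% Wilson interval 34.8 to 52.0) and 45.9% in the rest (41.9 to 49.9). The composition of the 3 subtypes was not shown to differ (Fisher's exact test, two-sided, p = 0.828), and IP-G4s of 1 genome are not independent replicates. With the 50% of peaks that had the smallest p-values in each list, the difference in the specific share turned to 8.56 points higher in the first 1 Mb (Fisher's exact test, p = 0.386).

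Being specific does not mean that the other condition had no peak. At 26 of the 33 K+-specific members on Chr1 (78.8%, 95% Wilson interval 62.2 to 89.3), Na++PEG200 libraries also had a peak, in replicate 1 alone at 16, in replicate 2 alone at 9 and in both at 1. At 18 of the 21 Na+-specific members (85.7%, 65.4 to 95), K++PEG200 libraries had one, in replicate 1 alone at 4, in replicate 2 alone at 14 and in both at none. In the rest of the stretch these shares were 69.2% of 172 and 82% of 100 (Fisher's exact test, p = 0.304 and p = 1). The overlap thus came more often from the library of the other condition that was sequenced more deeply, and the part of depth in it was not tested.

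The fold enrichment at these members was moderate in most libraries. The K+-specific IP-G4s lay on peaks with a median fold of 4.07 (up to 12.5) in replicate 1 and 3.45 (up to 8.28) in replicate 2 under K++PEG200. Where Na++PEG200 libraries had a peak there, its median was 2.99 in replicate 1 (17 peaks) and 3.56 in replicate 2 (10 peaks). At the Na+-specific IP-G4s, K++PEG200 peaks, where present, had medians of 3.42 (4 peaks) and 3.87 (14 peaks), against 3.31 and 3.34 for the 21 peaks of each Na++PEG200 library. The ranges of these folds overlapped between the conditions at both types of members. The medians, however, do not cover the same members. Those of the own condition include all members, and those of the other condition only members with a called peak. Whether the folds differed within the same members was not tested, and a fold exists only where a peak was called. For comparison, peaks under common IP-G4s of this window reached median folds of 4.80 and 5.53 in the K++PEG200 libraries, against 3.94 and 3.87 in the Na++PEG200 libraries. Folds are scaled to each library and its input, and the members were selected by peaks of these same libraries, so that these values are a description.

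**Figure D5:**
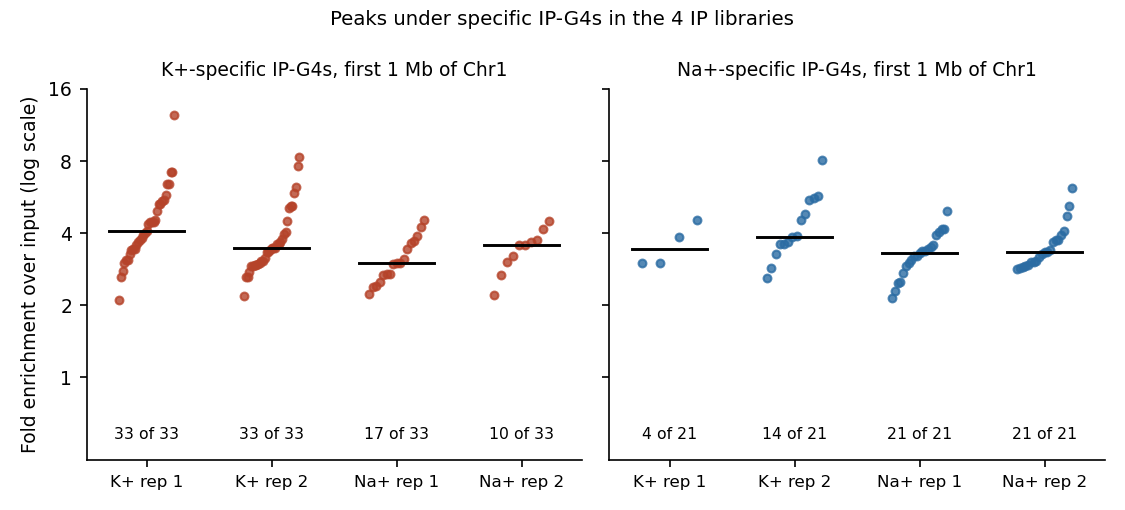
Fold enrichment over input (y axis, log scale) of the peaks under the 33 K+-specific (left) and 21 Na+-specific (right) IP-G4s in the first 1 Mb of Chr1, in each of the 4 libraries (x axis). Each point is 1 IP-G4 with a peak in that library, the line is their median, and the numbers below count them, as in 17 of 33 for K+-specific IP-G4s in replicate 1 under Na++PEG200.

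Of the 54 members at the start of Chr1, 3 lay on peaks among the strongest 25% by p-value in both libraries of their own condition. This was not counted for the rest of the stretch, so that 3 of 54 cannot be called many or few. The K+-specific IP-G4 from 904 to 1248, about 1.08 kb from the chromosome end, had the largest fold of all members there, 12.5 in replicate 1 under K++PEG200. In replicate 2 under K++PEG200 its fold was 6.25, where K+-specific members reached up to 8.28. Under Na++PEG200 it had no peak in replicate 1 and a fold of 2.66 in replicate 2. The K+-specific IP-G4 from 280217 to 280487 had 7.17 and 7.61 under K++PEG200, against no peak in replicate 1 and 4.47 in replicate 2 under Na++PEG200. The Na+-specific IP-G4 from 309836 to 310132 had no peak in replicate 1 but a fold of 8.07 in replicate 2 under K++PEG200, against 4.94 and 6.15 in replicates 1 and 2 under Na++PEG200. At all 3 of them a single library of the other condition also had a peak, and at the last one its fold was the highest of the 4 libraries.

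In 10 members of this window no library of the other condition had a peak. The 7 K+-specific ones were on Chr1 from 136844 to 137076, 220821 to 221075, 357152 to 357436, 626036 to 626393, 798073 to 798185, 813425 to 813486 and 820625 to 820847. The strongest of them was the last, with a fold of 7.17 and 5.11 in replicates 1 and 2 under K++PEG200. The lowest fold in replicate 1 was 2.62, at the one from 136844 to 137076, and the lowest in replicate 2 was 2.19, at the one from 626036 to 626393. The 3 Na+-specific ones were from 66631 to 66726 (3 and 3.27 in replicates 1 and 2 under Na++PEG200), from 299479 to 299607 (3.22 and 3.02) and from 571964 to 572191 (2.28 and 3.34). None of these 10 was among the strongest 25% in both own libraries. Not all of them need be separate loci. The one from 813425 to 813486 had the same fold and p-value in replicate 1 under K++PEG200 as the K+-specific IP-G4 from 812713 to 813138. At that neighbour, replicate 2 under Na++PEG200 had a peak (fold 3.02). The one from 66631 to 66726 shared fold and p-value in replicate 1 under Na++PEG200 with the K+-specific IP-G4 from 65832 to 66335. Equal values alone do not show a shared peak. The distant K+-specific IP-G4s from 280217 to 280487 and from 820625 to 820847 also had the same fold and p-value in replicate 1 under K++PEG200. Whether such neighbours lie on 1 peak was not tested. At 1 K+-specific IP-G4, from 65832 to 66335, both Na++PEG200 libraries had a peak, with folds of 3 and 2.21, and K++PEG200 folds of 4.47 and 4.48, yet the Na++PEG200 peaks did not share a segment with each other inside it.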

How the data were processed

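The members and all tests and lists were chosen with earlier results of these data known. The study's methods state that reads were trimmed with Trim Galore, aligned to MSU v7.0 with BWA, cleared of PCR duplicates with SAMtools, and that peaks were found in each library alone with MACS and the input as control. Per the deposited lists, the fold enrichment over input is a ratio, the −log10 of the p-value and q-value come from the peak caller, and the score, the whole-number part of a multiple of the −log10 p-value, was not used. The authors' specific lists hold start and end positions only. Read counts were not used, and the number of IP-G4s limits the precision.

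Rows were placed by their midpoint, with chromosome lengths rounded to 1 kb, and no row crossed a window border. For each chromosome, density, K+ share and median length in the windows were compared with those of the rest, which includes the first 1 Mb of Chr11 and Chr12. Since the lists carry no sample values, chromosomes served as pairs in an exact sign-flip permutation test (smallest p 0.000488 with 12), 95% intervals were obtained by inverting it, and p-values were adjusted over 6 comparisons by the Benjamini-Hochberg method. These p-values measure the spread between chromosomes, not between plants or libraries. The library lists cover the beginning of Chr1, their incomplete last lines were left out, and overlaps were counted from 1 bp. Windows, densest 100 kb pieces, longest IP-G4s and Chr1 members were named by a fixed rule of rank or overlap. The replicates are stated to be biological repeats. Sequence features and genes need the MSU v7 sequence and annotation and were not analysed here, nor were the input libraries. Python 3.11.15, numpy 2.4.6 and scipy 1.17.1 were used, and the procedures were tested on simulated data. For the comparisons over chromosomes, the simulated IP-G4s were placed uniformly at random, so that the clustering of the real ones was not covered.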

Additional observations from a re-analysis of the deposited data

How the results depend on the processing

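Alternatives were other window sizes, other reference regions, any overlap with the window, IP-G4s of at least 200 bp, mean lengths, pooled counts, each chromosome or library left out, the 50% strongest peaks, a larger overlap and pairing by replicate number. Of 153 alternative values for 11 comparisons, 134 kept their direction and their side of 0.05, 16 reversed and 3 became significant. Part of the 134 was fixed in advance. Any overlap repeated the main values because no row crossed a window border, and pairing by replicate number leaves a mean difference unchanged. Permutation tests between libraries could not reach 0.05 with so few libraries. The named windows could not change with any overlap, whereas IP-G4s of at least 200 bp gave 77 at the end of Chr5 and a K+ share of 91.2% at the end of Chr9 and 55.6% at the end of Chr4. None of the main comparisons passed the test, so that no call could be lost. Reference regions and window sizes contain other DNA by construction, and the cause of the other changes was not tested.

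With windows of 0.5 Mb, ends minus rest was 5.49 per Mb for all specific, 1.04 per Mb for K+-specific and 4.45 per Mb for Na+-specific IP-G4s, and starts minus ends was -6.2 per Mb. With windows of 2 Mb it was -7.96 and -5.94 per Mb, both significant, and -2.02 per Mb for Na+-specific ones. Leaving out each chromosome with windows of 2 Mb was chosen after seeing the data. Against 1 to 5 Mb from the same ends, the differences were 6.48 and 2.82 per Mb. With IP-G4s of at least 200 bp, Na+-specific density differed by -0.50 per Mb.

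With each chromosome left out, ends minus rest ranged between -4.55 and -2.83 per Mb for all, -4.79 and -3.26 for K+-specific (significant without Chr12) and -0.19 (without Chr11) and 1.03 for Na+-specific IP-G4s. The K+ share ranged between -3.18 and -1.60 points, and lengths between -4.95 and -0.59 bp and between -8.91 and -5.09 bp. Starts minus ends ranged between -3.44 and 6.33 per Mb, and between -0.038 (without Chr7) and 4.22 points in K+ share. At the start of Chr1, with each library left out, the difference in peaks ranged between -3 and 32, that in length between 32.5 and 49.5 bp and that in the specific share between -5.90 and -1.35 points. With these strongest peaks, the last was 8.56 points. With the replicate block, the paired difference was 14.5 peaks and 41 bp, by construction the same as without it (exact permutation, p = 1 and p = 0.5, where 0.5 is the smallest possible). This setting could therefore change no call.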
